A study of Mus musculus with 4 samples.

Results

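Marker genes of marrow mesenchymal cells and osteoblasts were followed in mouse osteoclast cultures with and without Piezo1, an ion channel that opens under mechanical force. A list of 10 symbols was used: the receptors Pdgfra and Pdgfrb, the adhesion molecules Cdh11, Vcam1 and Thy1, the chemokine Cxcl12, the enzyme Alpl, and the transcription factors Runx2, Twist1 and Prrx1. They are receptors, adhesion proteins, enzymes and regulators, and genes of the extracellular matrix were left out of the list. Of the 10, 9 have a row in the deposited table of 12799 genes, and Thy1 was not analysed here because it has no row. The 9 with a row were each above 1 CPM in all 4 libraries, where CPM is a gene's read count normalised to the scaled total of its library, so that 9 of 9 entered the test. The question was whether these markers were lower together in the knockout cultures.

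Marrow mesenchymal cells are the stromal and bone-forming cells of the marrow, and they give rise to osteoblasts, the cells that lay down bone. They come from a different lineage than the monocytes from which osteoclasts, the cells that resorb bone, are made. In the marrow, stromal cells and osteoblasts supply M-CSF and RANKL, the growth factor and the cytokine that osteoclasts need.

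Poly(A) RNA was sequenced from 4 cultures started from the marrow of 12-week-old female mice. Cells that had not attached after 2 days were carried forward in M-CSF at 30 ng/mL and then differentiated for 3 days with M-CSF at 30 ng/mL and RANKL at 50 ng/mL. The 2 control libraries came from Piezo1fl/fl mice, whose Piezo1 alleles are flanked by recombination sites, and the 2 knockout libraries came from Csf1r-iCre;Piezo1fl/fl mice, which carry the same alleles and a Cre recombinase under the Csf1r promoter, active in monocytes and macrophages. The controls carry no Cre, so loss of Piezo1 and presence of the transgene cannot be told apart. The recombinase is not directed at mesenchymal cells, and the labels do not say how many animals stand behind a library, so p-values measure the spread between these libraries.

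The libraries held between 14122118 and 18897927 reads, so 1 read was worth between 0.0544 and 0.0700 CPM. Piezo1 stood at 430 and 384 CPM in the controls and at 61.0 and 56.2 CPM in the knockouts, 14.4% of the control mean, and it fell by 2.79 on the log2 scale (limma, SE 0.10, adjusted p = 8.23e-05). Of its exon bases 24.6% are shared with Ctu2 on the other strand, and without a stated strand setting reads of both genes there cannot be told apart. Osteoclast markers made up the bulk of the marker signal: the summed level of 10 such genes ranged from 59742 to 62679 CPM in the controls and from 60635 to 75264 CPM in the knockouts, and 9 macrophage markers summed to between 3332 and 4059 CPM in the 4 libraries. No row was found for 8 T and NK cell markers and 5 B cell markers. Markers of the labelled cell type, a monocyte driven toward the osteoclast, were thus high, and the mesenchymal markers were low beside them, at 164 and 173 CPM in sum over 9 genes in the controls.

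The 9 markers summed to 146 and 120 CPM in the knockouts, 78.7% of the control mean. Of the 9, 7 had a negative log2 fold change and 2 a positive one. Pdgfra, counted as negative, was at -0.0049, and its knockout mean in CPM was 103% of control. The median of the 9 was -0.41, against 0.0016 over all 11781 tested genes, of which 49.5% were negative. No marker passed limma at an adjusted p under 0.05, where 0.161% of all tested genes did. None passed edgeR's quasi-likelihood test on the recovered reads, which also called 0.161% of genes, and none passed DESeq2, which called 0.528% of the genes with an adjusted p as lower. At an unadjusted p under 0.05 in limma, 4 of 9 were lower in the knockouts (Cdh11, Prrx1, Pdgfrb and Twist1), beside 3.55% of all tested genes. Both knockouts lay below both controls for 5 of 9, these and Runx2, beside 15.4% of all tested genes. For the other 4, Pdgfra, Cxcl12, Alpl and Vcam1, the groups overlapped. The markers were chosen with earlier results of these data known, so these shares describe the list and do not test whether it fell as a set. In bulk RNA, fewer cells of a type and less RNA per cell cannot be told apart.

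**Figure D1:**
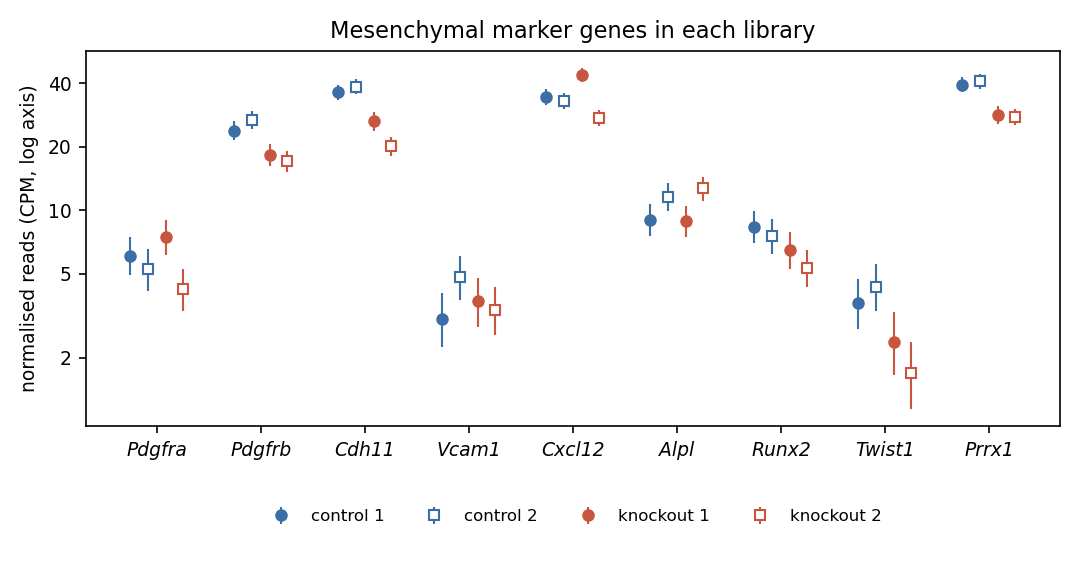
Level of each of the 9 markers in CPM (log axis) in each library, filled points for replicate 1 and open squares for replicate 2, with 95% intervals from counting error alone. Cdh11, Prrx1, Pdgfrb, Twist1 and Runx2 have both knockout points below both control points, and the points of Pdgfra, Cxcl12, Alpl and Vcam1 overlap between groups.

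Prrx1, Twist1 and Runx2 are the transcription factors of the list. Prrx1 is a homeodomain protein of limb and skeletal mesenchyme, Twist1 is a basic helix-loop-helix (bHLH) factor of early mesenchyme that holds back the action of Runx2, and Runx2 is the runt-domain factor required for osteoblasts to form. Their promoters are shown because these 3 regulators were lower in both knockouts, beside that of Pdgfra, a stromal marker whose groups overlapped. Each window is 300 bases long, lies mostly upstream of the start site in RefSeq's annotation of GRCm38.p6 and includes it, is written 5′ to 3′ on the strand of the gene, and carries in capitals the matches to 4 short motifs. The Prrx1 window is chr1:163313601-163313900 on the minus strand, that of Twist1 is chr12:33957421-33957720 on the plus strand, that of Runx2 is chr17:44814578-44814877 on the minus strand, and that of Pdgfra is chr5:75152001-75152300 on the plus strand.
Prrx1: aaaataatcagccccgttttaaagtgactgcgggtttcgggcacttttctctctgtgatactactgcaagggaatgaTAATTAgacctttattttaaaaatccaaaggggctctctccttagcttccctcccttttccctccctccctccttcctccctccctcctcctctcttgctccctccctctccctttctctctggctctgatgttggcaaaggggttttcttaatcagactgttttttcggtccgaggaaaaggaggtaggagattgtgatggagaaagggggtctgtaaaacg
Twist1: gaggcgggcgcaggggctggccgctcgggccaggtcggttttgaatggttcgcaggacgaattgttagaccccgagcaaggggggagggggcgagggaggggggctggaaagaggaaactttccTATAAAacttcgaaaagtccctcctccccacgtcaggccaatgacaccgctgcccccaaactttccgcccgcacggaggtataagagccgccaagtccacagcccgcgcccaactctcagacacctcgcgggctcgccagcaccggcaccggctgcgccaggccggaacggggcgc
Runx2: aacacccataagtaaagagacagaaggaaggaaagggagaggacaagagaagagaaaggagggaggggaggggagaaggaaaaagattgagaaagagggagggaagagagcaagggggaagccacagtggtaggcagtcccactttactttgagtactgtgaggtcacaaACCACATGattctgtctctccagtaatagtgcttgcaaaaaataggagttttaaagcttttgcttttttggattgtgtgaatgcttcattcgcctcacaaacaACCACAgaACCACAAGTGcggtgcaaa
Pdgfra: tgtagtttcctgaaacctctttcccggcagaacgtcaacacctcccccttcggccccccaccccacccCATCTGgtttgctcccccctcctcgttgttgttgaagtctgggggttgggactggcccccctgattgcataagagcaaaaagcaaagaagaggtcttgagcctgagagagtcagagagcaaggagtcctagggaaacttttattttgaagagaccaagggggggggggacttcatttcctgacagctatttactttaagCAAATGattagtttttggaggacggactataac

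The motifs searched on both strands were CANNTG, the E-box bound by bHLH factors such as Twist1, ACCACA with its complement TGTGGT, bound by runt-domain factors, TAATTA, a core bound by many homeodomain proteins, and TATAAA with its complement TTTATA. The Runx2 window held 3 runt matches, at -80, 23 and 31 bases from the start site. Of 32851 promoter windows 16.8% held at least 1, and the share with 3 was not counted. It also held 2 E-boxes, at -78 and 35, and these overlap the runt matches at -80 and 31. These distances are from the RefSeq start. In GENCODE the gene begins upstream of that start, at 44814797 inside the window, so most of the Runx2 window lies within the gene there. The Prrx1 window held 1 TAATTA at -173, a motif found in 5.29% of windows, and the Twist1 window 1 TATAAA at -126, found in 13.6%. The Pdgfra window held E-boxes at -182 and 17, and an E-box was present in 72.3% of all windows. In GENCODE Prrx1 begins at 163313710 and Pdgfra at 75152292, also inside their windows but away from the RefSeq starts. The Pdgfra E-box at 17 lies upstream of the gene there. The matches describe letters in these windows and no factor's binding was measured.

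Prrx1 (ENSMUSG00000026586.16, chromosome 1, 163245119 to 163313710, minus strand, GRCm38) stood at 39.4 and 40.9 CPM in control 1 and control 2 and at 28.4 and 27.6 CPM in knockout 1 and knockout 2. The replicates lay close together in both groups and the groups did not overlap. Its mean was 40.2 ± 1.08 CPM (SD, n = 2) in controls and 28.0 ± 0.539 CPM (SD, n = 2) in knockouts, 69.7% of control. The log2 fold change was -0.51 (SE 0.11, 95% interval -0.76 to -0.27), with an adjusted p of 0.264 in limma and 0.224 in DESeq2.

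Twist1 (ENSMUSG00000035799.6, chromosome 12, 33957671 to 33959829, plus strand) stood at 3.64 and 4.34 CPM in the controls and at 2.38 and 1.69 CPM in the knockouts, from 56, 62, 36 and 31 reads. Of the 9 markers it had the lowest percentage of control, 50.9%, and the fewest reads in the knockouts. Its log2 fold change was -0.84 (SE 0.24, 95% interval -1.41 to -0.27; limma adjusted p = 0.681).

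Runx2 (ENSMUSG00000039153.16, chromosome 17, 44495987 to 44814797, minus strand) stood at 8.38 and 7.56 CPM in the controls and at 6.47 and 5.33 CPM in the knockouts. Both knockouts were below both controls, at 74.0% of the control mean, but the interval of the log2 fold change reached past 0: -0.41 (SE 0.18, 95% interval -0.84 to 0.02; limma adjusted p = 0.9997). The antisense gene Runx2os1 overlaps 5.87% of the exon bases of Runx2, and since no strand setting of the counting is given, their reads cannot be told apart.

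The partners of these factors were described from lists of their own, and none was called by limma, edgeR or DESeq2, nor had any an unadjusted limma p under 0.05. Cbfb, the subunit that Runx proteins bind, was at 110 and 101 CPM in the controls and at 121 and 112 CPM in the knockouts (log2 fold change 0.14). The paralogs gave log2 fold changes of 0.04 for Runx1, the blood-forming member, and -0.50 for Runx3, at 2.14 and 3.92 CPM in the controls and at 2.18 and 1.69 CPM in the knockouts. The bHLH partners of Twist1 gave 0.08 for Tcf3, -0.21 for Tcf4 and 0.07 for Tcf12. The Id proteins, which sequester those partners, gave 0.19 for Id1, -0.17 for Id2 and -0.34 for Id3. Monocytes and macrophages express several of these genes too. Their median log2 fold changes were 0.04 for the RUNX list and -0.05 for the Twist1 list.

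Pdgfrb and Pdgfra are the receptor tyrosine kinases for platelet-derived growth factors, which drive growth and migration of mesenchymal cells. Pdgfrb (ENSMUSG00000024620.11, chromosome 18, 61045150 to 61085061, plus strand), the receptor of pericytes and stromal cells, stood at 23.8 and 26.8 CPM in the controls and at 18.4 and 17.1 CPM in the knockouts. The groups did not overlap, and the knockout mean of 17.7 ± 0.950 CPM (SD, n = 2) was 70.1% of the control mean of 25.3 ± 2.10 CPM (SD, n = 2). Its log2 fold change was -0.50 (SE 0.13, 95% interval -0.80 to -0.20), with an adjusted p of 0.478 in limma and 0.752 in DESeq2.

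Pdgfra (ENSMUSG00000029231.15, chromosome 5, 75152292 to 75198215, plus strand), the receptor that marks many marrow stromal progenitors, stood at 6.10 and 5.25 CPM in the controls and at 7.46 and 4.24 CPM in the knockouts. Knockout 1 was above and knockout 2 below both controls. Its log2 fold change was -0.0049 (SE 0.27, 95% interval -0.63 to 0.62; limma adjusted p = 0.9997), so a fall as large as that of Pdgfrb lies within the interval. Of its exon bases, 6.5% are shared with other annotated genes. These are the antisense Gm42802 and Gm42803 on the minus strand, and Mir7025 on the plus strand, that of Pdgfra.

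Of the 4 ligands of these receptors none was called by limma, edgeR or DESeq2, and 1 had an unadjusted limma p under 0.05. That ligand was Pdgfc, which signals mainly through Pdgfra, at 6.88 and 8.68 CPM in the controls and 5.28 and 4.24 CPM in the knockouts (log2 fold change -0.65, limma adjusted p = 0.781). Pdgfb, which osteoclast precursors themselves secrete, was the ligand with the most reads, at 178 and 175 CPM in the controls and 178 and 194 CPM in the knockouts (log2 fold change 0.08). The log2 fold change was -0.07 for Pdgfa and 0.18 for Pdgfd.

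Cdh11, Vcam1 and Thy1 are the surface adhesion molecules of the list. Cdh11 (ENSMUSG00000031673.6, chromosome 8, 102632095 to 102785642, minus strand), also called OB-cadherin, joins osteoblasts and stromal cells to one another. It stood at 36.4 and 38.6 CPM in the controls and at 26.5 and 20.2 CPM in the knockouts. The groups did not overlap, and the knockout mean of 23.3 ± 4.45 CPM (SD, n = 2) was 62.2% of the control mean of 37.5 ± 1.61 CPM (SD, n = 2). The log2 fold change was -0.69 (SE 0.15, 95% interval -1.03 to -0.34), and the adjusted p was 0.292 in limma, 0.294 in edgeR and 0.0585 in DESeq2. With 1 library left out the limma adjusted p was 0.793 without control 1 and 0.9997 without control 2, against 0.0166 when knockout 1 and 0.355 when knockout 2 was omitted, with log2 fold changes from -0.88 to -0.49. Where 1 knockout is left, it is assumed to vary as the controls do, so the p-value does not cover the spread between knockouts.

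Vcam1 (ENSMUSG00000027962.14, chromosome 3, 116109949 to 116129688, minus strand) is the ligand of integrin alpha-4 on blood cells and is made by stromal cells, endothelium and some macrophages. It stood at 3.05 and 4.83 CPM in the controls and at 3.70 and 3.37 CPM in the knockouts, both knockouts lying between the controls, with a log2 fold change of -0.11 (SE 0.25, 95% interval -0.70 to 0.48; limma adjusted p = 0.9997).

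The intracellular partners of cadherins are made by most cells. None of 5 genes on that list was called by limma, edgeR or DESeq2 or had an unadjusted limma p under 0.05: the log2 fold change was -0.03 for Ctnnb1 (beta-catenin), 0.05 for Ctnna1, -0.0046 for Ctnnd1 and -0.26 for Jup. It was -0.34 for Cdh2, another mesenchymal cadherin, which stood at 13.6 and 15.8 CPM in the controls and 13.1 and 10.0 CPM in the knockouts. For the integrin subunits that bind Vcam1 the same counts were 0 of 4, with log2 fold changes of -0.06 for Itga4, 0.07 for Itgb1, -0.07 for Itgb7 and -0.15 for Itga9.

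Cxcl12 (ENSMUSG00000061353.11, chromosome 6, 117168535 to 117181367, plus strand) is the chemokine by which marrow stromal cells retain blood-forming cells. It stood at 34.6 and 33.0 CPM in the controls and at 43.9 and 27.4 CPM in the knockouts, with knockout 1 above and knockout 2 below both controls, as for Pdgfra. Its fitted log2 fold change was 0.04 (SE 0.20, 95% interval -0.43 to 0.51; limma adjusted p = 0.9997). Cxcr4, its receptor on blood cells, stood at 5.26 and 7.00 CPM in the controls and at 6.93 and 3.91 CPM in the knockouts, which overlap (log2 fold change -0.20). Dpp4, a protease that cleaves the chemokine, was below the filter in all 4 libraries, and the second receptor, Ackr3, has no row.

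Alpl (ENSMUSG00000028766.10, chromosome 4, 137741733 to 137796384, minus strand) encodes the tissue-nonspecific alkaline phosphatase, which removes pyrophosphate so that matrix can mineralise, and is an early osteoblast marker. It stood at 9.03 and 11.6 CPM in the controls and at 8.91 and 12.7 CPM in the knockouts. The knockouts spanned both controls, and knockout 2 was the higher one, the opposite order to Pdgfra and Cxcl12. The log2 fold change was 0.05 (SE 0.21, 95% interval -0.44 to 0.55; limma adjusted p = 0.9997). Of 6 other mineralisation genes none was called by limma, edgeR or DESeq2 and none had an unadjusted limma p under 0.05. Phospho1, a phosphatase of matrix vesicles, had a log2 fold change of -0.27, Enpp1, which makes pyrophosphate, -0.13, and Smpd3 0.05. The transporters Ank, Slc20a1 and Slc20a2 had -0.03, -0.04 and -0.03.

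**Figure D2:**
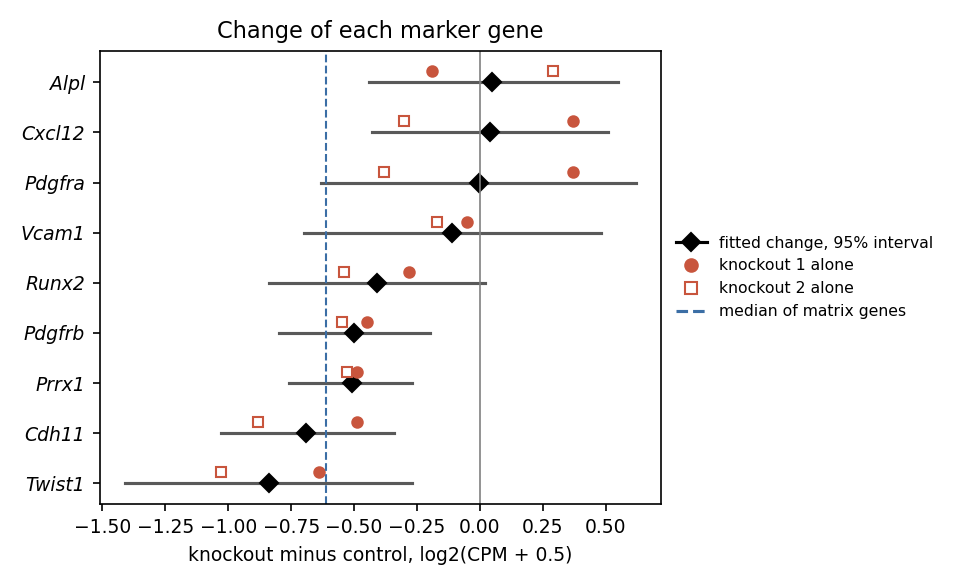
Log2 fold change of each marker, knockout minus control, as a diamond with its 95% limma interval, with each knockout library against the control mean above it and the median of the matrix genes, -0.61, as a dashed line. The intervals of Cdh11, Prrx1, Pdgfrb and Twist1 lie below 0, and those of the other 5 markers hold 0.

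Levels between genes were compared per kilobase of exon. The length counts every base of any annotated exon of the gene, so it can exceed that of the transcript expressed. In the controls Pdgfrb had the highest mean at 4.62 CPM per kb. Its lower library at 4.35 lay just above the higher one of Cdh11 at 4.34, a gap within counting error. Next were Cdh11 at 4.21 and Cxcl12 at 4.13, which did not differ beyond their spread. Prrx1 followed at 3.63, then Alpl at 2.56 and Twist1 at 2.45, which overlapped, and then Runx2 at 0.902. Pdgfra at 0.566 and Vcam1 at 0.444 were lowest and overlapped. In the knockouts Cxcl12 stood first at 4.36 CPM per kb, but its libraries, at 5.37 and 3.35, overlapped those of Pdgfrb, which had a mean of 3.24. From Cxcl12 to Prrx1 each neighbour overlapped the next. Twist1 stood at 1.25, Runx2 at 0.667, Pdgfra at 0.583 and Vcam1 at 0.398, and Runx2 and Pdgfra overlapped. Twist1, which overlapped Alpl in the controls, lay below it in both knockouts, where Alpl stood at 2.67.

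Matrix genes of mesenchymal cells, the collagens and other secreted proteins that the marker list leaves out, were set beside the markers. Of 18 such genes, 16 were tested, 16 had a negative log2 fold change, 10 had an unadjusted limma p under 0.05 and 1 was called by limma and by edgeR, whereas DESeq2 called 10. Their median was -0.61, against -0.41 for the markers. The summed level of the 17 with a row was 4274 and 4463 CPM for control 1 and 2 against 2788 and 2485 CPM for knockout 1 and 2, 60.4% of control. The called gene was Fbn1, the microfibril protein fibrillin 1, which stood at 80.7 and 77.9 CPM in the controls and 46.6 and 45.1 CPM in the knockouts and fell by 0.78 on the log2 scale (limma adjusted p = 0.0357). Fn1 (fibronectin) had a log2 fold change of -0.87, Col5a1 -0.77 and Sparc (osteonectin) -0.58, with limma adjusted p-values of 0.111, 0.159 and 0.109. Fn1 was the largest single part of the sum, at 1621 and 1263 CPM in the controls and 771 and 796 CPM in the knockouts. Which cells of the cultures made its RNA was not tested, so the sum need not be mesenchymal signal alone. The matrix median of -0.61 lay within the intervals of 7 markers and outside those of Cxcl12 and Alpl. Of these 7, the intervals of Pdgfra, Runx2 and Vcam1 also held 0. Whether markers and matrix genes differ in their change as groups was not tested.

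Of 24 other non-matrix mesenchymal genes, 17 were tested, and 12 of these had a negative and 5 a positive log2 fold change, with a median of -0.32. None was called by limma, edgeR or DESeq2, and at an unadjusted limma p under 0.05 there were 4 lower and 1 higher. Cd248 (endosialin), a surface protein of pericytes and stromal fibroblasts, stood at 12.1 CPM in both controls and at 8.05 and 5.27 CPM in the knockouts (log2 fold change -0.84, limma adjusted p = 0.458). The receptor Ror2 had a log2 fold change of -0.83 and the fibroblast growth factor receptor Fgfr1 -0.42. Kitl, the stem cell factor of stromal cells, was higher in both knockouts, at 40.6 and 33.3 CPM against 30.5 and 27.6 CPM (log2 fold change 0.34, limma adjusted p = 0.985). The summed level of the 20 with a row was 139 and 140 CPM in the controls and 134 and 111 CPM in the knockouts. Of osteocalcin, the late osteoblast product, Bglap has no row and Bglap2 was at 0.649 and 1.61 CPM in the controls and 0.594 and 0.652 CPM in the knockouts, below the filter; it was named after its values were seen.

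**Figure D3:**
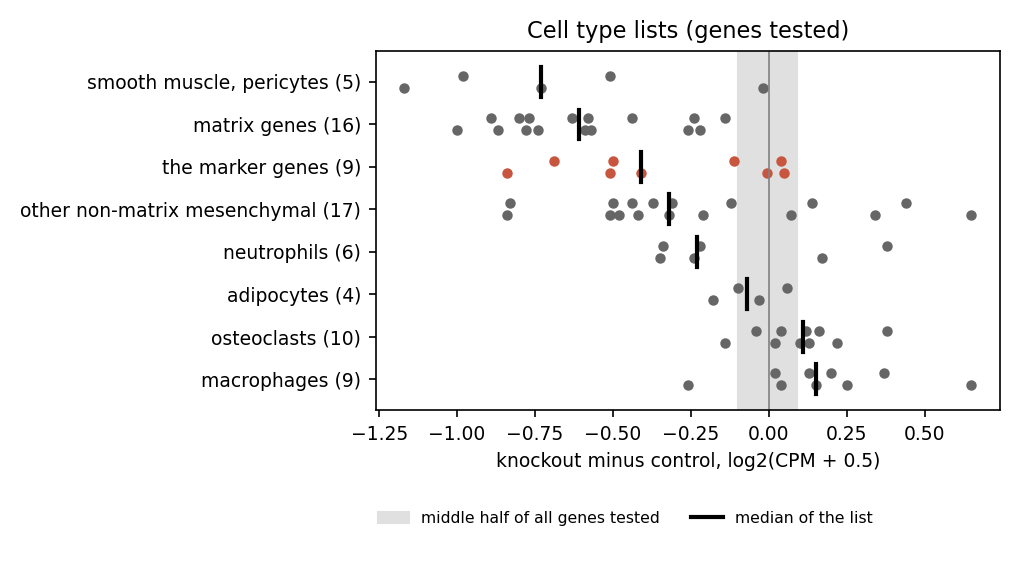
Log2 fold change (knockout minus control) of every tested gene of each list, 1 point per gene, with the list's median as a bar; numbers in brackets are genes tested, and the grey band runs from -0.10 to 0.09, the quartiles of all tested genes. The matrix list has its median at -0.61, the markers at -0.41, the other non-matrix mesenchymal genes at -0.32 and the smooth muscle list at -0.73, while osteoclast and macrophage markers have medians of 0.11 and 0.15.

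Markers of smooth muscle and pericytes, contractile cells that share Pdgfrb with stromal cells, differed among themselves. Of 8 listed genes 5 were tested, all 5 had a negative log2 fold change, none was called by limma or edgeR, 3 had an unadjusted limma p under 0.05 and the same 3, Acta2, Tagln and Cnn1, were called by DESeq2. Acta2 (smooth muscle actin) stood at 122 and 161 CPM in the controls and 68.9 and 104 CPM in the knockouts, and Tagln and Cnn1 had log2 fold changes of -0.98 and -1.17 (limma adjusted p = 0.158 and 0.196). Myh11, the smooth muscle myosin, stood at 1.49 and 1.75 CPM in the controls and 0.594 and 1.52 CPM in the knockouts. Notch3, Rgs5 and Des of the list were not lower in both knockouts, and they were named after their values were seen. Pdgfrb and Cd248, which pericytes also express, were lower in both knockouts, at 70.1% and 55.1% of control. Notch3 stood at 3.70 and 3.15 CPM in the controls and 3.17 and 3.59 CPM in the knockouts (log2 fold change -0.02). Rgs5, below the filter in 3 libraries, stood at 0.584 and 0.700 CPM in the controls and at 0.726 and 1.03 CPM in the knockouts, and Des was below 1 CPM in all 4 libraries. The summed level of the list, most of it Acta2, ranged from 159 to 203 CPM in the controls and from 87.0 to 129 CPM in the knockouts. Part of these genes can also be expressed by stromal cells, and the part that the share of such cells has in the markers' values was not tested.

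Markers of the other cell types did not pass limma, edgeR or DESeq2. Of 10 osteoclast markers, 1 had an unadjusted limma p under 0.05: Dcstamp, the fusion protein, stood at 666 and 649 CPM in the controls and 838 and 877 CPM in the knockouts (log2 fold change 0.38, limma adjusted p = 0.475), and Calcr, Oscar and Mmp9 had log2 fold changes of -0.14, 0.12 and 0.22. Of 9 macrophage markers none had an unadjusted p under 0.05, with log2 fold changes of 0.20 for Itgam, 0.37 for Aif1 and 0.13 for Csf1r. Mertk had 0.65, but its controls stood at 7.47 and 2.87 CPM, and the value was 1.27 without control 1 and 0.03 without control 2. The 7 neutrophil markers with a row summed to 46.6 and 85.8 CPM in the controls and 54.4 and 53.5 CPM in the knockouts. Of these 6 were tested, with 0.38 for Mpo, -0.34 for S100a9, -0.35 for S100a8 and -0.24 for Ltf. Of 4 tested genes of the adipocyte list, Pparg had -0.18, Lpl -0.10, Fabp4 0.06 and Cebpa -0.03, and macrophages express these too, while Adipoq and Plin1 have no row. Of 8 endothelial genes 2 have a row, and Kdr, the 1 tested, had -0.23. None of the neutrophil, adipocyte and endothelial genes tested had an unadjusted p under 0.05.

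The 2 knockout libraries differed beyond counting error in some markers, as they did in many other genes. The ratio of knockout 1 to knockout 2 was 1.76 for Pdgfra (95% interval 1.31 to 2.38), 1.60 for Cxcl12 (1.42 to 1.80) and 1.31 for Cdh11 (1.14 to 1.52), and it was 0.703 for Alpl (0.565 to 0.873), with intervals that cover counting error only. For the other 5 markers the interval held 1, and for Prrx1 the ratio was 1.03 (0.902 to 1.17). Intervals above 1 were thus found for 33.3% of markers and intervals below 1 for 11.1%, beside 19.3% and 19.5% of all tested genes. Such differences were therefore not particular to the markers. Between the 2 controls, Alpl at 0.777 (0.616 to 0.979) and Vcam1 at 0.632 (0.427 to 0.929) were the markers whose interval left out 1.

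The same comparison within the knockouts gave 9 matrix genes higher in knockout 1, 3 lower and 4 within counting error. Between the controls 2 were higher in control 1, 8 lower and 6 within it, so these genes also varied between controls. Over all tested genes, 17.1% were higher and 16.8% lower in control 1. For genes with many reads these intervals leave out 1 at small differences, as for Col1a1 between the knockouts at 1.06 (1.02 to 1.10). Col1a1, picked as an example of this, was at 56.9% of control. Its log2 fold change was -0.80 (adjusted p = 0.178 in limma and 1.54e-05 in DESeq2). Col6a1, at 145 and 148 CPM in the controls and 173 and 90.7 CPM in the knockouts, and Col6a2, at 130 and 131 CPM and then 157 and 75.3 CPM, had ratios of 1.90 and 2.09 and, as for Pdgfra and Cxcl12, 1 knockout on each side of the controls; both were named after their values were seen. Of the other non-matrix mesenchymal genes 7 were higher in knockout 1 and 0 lower, against 1 higher and 3 lower in control 1. Of the 5 smooth muscle genes 0 were higher and 4 lower in knockout 1, against 0 and 1 in control 1. The median log2 difference of the 9 markers from the control mean was -0.28 in knockout 1 and -0.53 in knockout 2, so both libraries lay on the same side with different sizes.

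**Figure D4:**
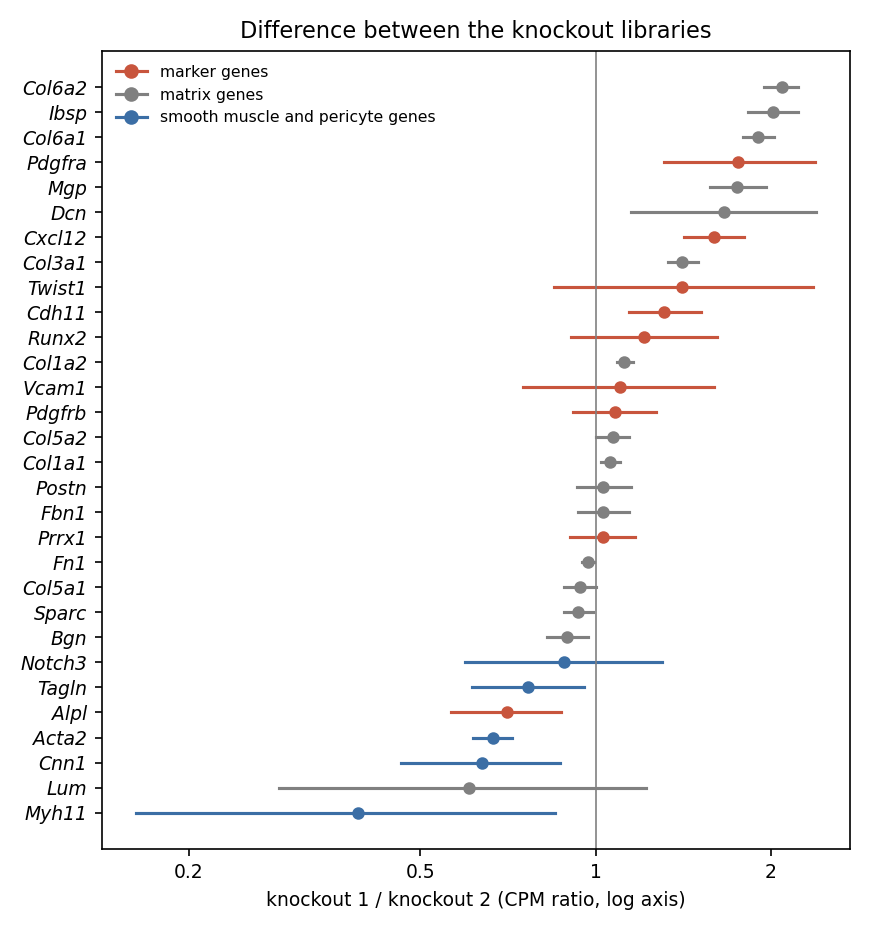
Ratio of knockout 1 to knockout 2 on a log axis for the 9 markers (red), 16 matrix genes (grey) and 5 smooth muscle and pericyte genes (blue), with 95% intervals from counting error. Pdgfra, Cxcl12 and Cdh11 lie above 1 and Alpl below, and 4 of 5 smooth muscle genes lie below 1.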

How the data were processed

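Poly(A) RNA of 2 control and 2 knockout libraries was sequenced. Tools named in the submitters' processing notes are STAR, Subread's featureCounts and edgeR, with build mm10 (GRCm38). Neither versions nor the annotation release and strand setting of the counting were stated there. The table deposited by the authors gives 1 signal per gene (12799) and library, on a normalised scale that proved to be CPM. Each value was a whole multiple of the worth of 1 read (100% within 0.001 reads), which returned the reads, and TMM-scaled CPM from these matched the deposited signal to within 4.91e-11.

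limma was fitted with an intensity trend to log2(CPM + 0.5) of the 11781 genes that reached 1 CPM in 2 or more libraries. Genotype was the one term, tests were 2-sided, and p-values had Benjamini-Hochberg adjustment over all of them. Fold changes on this scale understate those of low genes. edgeR's quasi-likelihood test and DESeq2 on the recovered reads, changes of pseudocount, filter, scaling and variance model, a block for the replicate number, and omission of each library in turn were the alternatives. DESeq2 gave no adjusted p to 1371 genes. Replicates differed beyond sampling noise (chi-square per degree of freedom 11.5 between controls and 23.2 between knockouts). Ratios of 2 libraries carry exact binomial intervals. The test was checked on simulated reads.

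The members and lists were chosen with earlier results of these data known. Named were all 10 members, the partner lists of 6 or fewer genes and, of each other list, every called gene and up to 4 tested genes with the smallest limma p. Col1a1 and the genes marked as named after their values were seen fall outside this rule. Positions are from GENCODE M21 on GRCm38, which may differ from the authors' annotation. Promoters are from RefSeq on GRCm38.p6 and were searched for 6 of 10 members. Those of Alpl and Cxcl12 were searched but are not shown. Chromosome 18, which holds Pdgfrb, was left out of the member search. Software was limma 3.58.1, DESeq2 1.42.0 and edgeR 4.0.16 under R 4.3.3.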

Additional observations from a re-analysis of the deposited data

How the results depend on the processing

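No marker was called under any alternative but those that follow. With the replicate number as a block 1 of 9 was called, Cdh11 (limma adjusted p = 0.0311), and with 1 library left out the count ranged from 0 to 1, the call being Cdh11 without knockout 1 (adjusted p = 0.0166). A fit with 1 library in a group assumes that it varies as the other group does. The deviations of same-numbered libraries correlated at r = -0.0016 across genes, so no shared deviation was seen. This correlation alone cannot exclude pairing, and the labels name none. The block raised the calls over all genes from 19 to 89. The markers' median of -0.41 ranged from -0.53 to -0.28 when a library was left out. For the matrix genes, 1 of which was called, the count was 0 with no intensity trend (4 calls over all genes), 8 with the block, 10 with DESeq2 (63 over all genes), and 0 to 10 with a library left out: 0 without either control, 10 without knockout 1 and 4 without knockout 2. For smooth muscle genes it was 3 with the block, 3 with DESeq2 and 0 to 3 with a library left out, and for other non-matrix mesenchymal genes 0 to 1, the call being Cd248 without knockout 1. Over all genes, 7 were called without control 1 and 8 without control 2, against 76 when knockout 1 and 61 when knockout 2 was left out. The cause of these differences was not tested.

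Of 135 recomputed marker values 8 changed sign, all of Pdgfra, Cxcl12, Alpl and Vcam1. Pdgfra had a log2 fold change of 0.03 with edgeR and 0.03 with DESeq2, and ranged from -0.38 to 0.37 with a library left out; Cxcl12 ranged from -0.30 to 0.37, Alpl from -0.19 to 0.29 and Vcam1 from -0.40 to 0.18. Of the 62 other named genes that were recomputed, which leave out Col1a1, 25 changed sign. Cebpa had 0.01 with edgeR and 0.01 with DESeq2. With a library left out the ranges were -0.57 to 0.18 for Cxcr4, -0.19 to 0.11 for Slc20a1, -0.10 to 0.05 for Slc20a2, -0.37 to 0.48 for Smpd3, -0.08 to 0.03 for Ank, -0.18 to 0.26 for Runx1, -0.20 to 0.09 for Itga4, -0.33 to 0.03 for Itga9, -0.22 to 0.08 for Itgb7, -0.03 to 0.02 for Ctnnd1, -0.09 to 0.02 for Ctnnb1, -0.11 to 0.48 for Id1, -0.03 to 0.19 for Tcf3, -0.52 to 0.18 for Id2, -0.04 to 0.29 for Oscar, -0.40 to 0.04 for Pparg, -0.31 to 0.10 for Lpl, -0.32 to 0.44 for Fabp4, -0.46 to 0.40 for Cebpa, -0.87 to 0.19 for S100a9, -0.88 to 0.17 for S100a8, -0.58 to 0.09 for Ltf, -0.12 to 0.09 for Notch3, -0.69 to 0.24 for Col6a1 and -0.79 to 0.27 for Col6a2. With 2 libraries a group, and 31 to 62 reads a library for Twist1 and 47 to 69 for Vcam1, depth limits what can be read from the lowest markers.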
